A study of Mus musculus with 4 samples.

Results

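Immune checkpoints are pairs of receptors on lymphocytes and ligands on the cells they meet. The 10 genes described here are the receptors Pdcd1 (PD-1), Ctla4, Lag3, Havcr2 (TIM-3), Tigit and Icos, the transcription factor gene Tox, the ectoenzyme gene Entpd1 (CD39), and the PD-1 ligands Cd274 (PD-L1) and Pdcd1lg2 (PD-L2). They were chosen by name, as 10 of the 32285 genes listed, and each of the 10 had at least 1 unique molecular identifier (UMI, the tag of 1 captured RNA molecule) in each library. Mammary tumors of 4 MMTV-PyMT transgenic mice, in which the polyoma middle T antigen is driven in mammary epithelium, were profiled by single-cell RNA sequencing with 1 library per mouse.

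All 4 mice carried 2 floxed Frmd8 alleles (Frmd8 fl/fl) and the PyMT transgene and were 17 to 18 weeks old. They came from a cross that gives both genotypes as littermates. The floxed and PyMT lines are given as C57BL/6, and no strain is given for the MMTV-Cre line. The genotype MMTV-Cre-; Frmd8 fl/fl; PyMT (here Cre-) is that of replicates 1 and 3, the genotype MMTV-Cre+; Frmd8 fl/fl; PyMT (here Cre+) is that of replicates 2 and 4, and no drug treatment is given for these mice. The MMTV promoter drives Cre in luminal mammary epithelium, so immune and stromal cells of the Cre+ mice are not the intended site of the deletion. The deletion removes exons 4 to 6 of Frmd8, and counts at the 3' end of the gene need not vanish with it. In epithelial cells Frmd8 stood at 24.3 and 24.1 counts per 1000000 UMIs of the class (CPM) in Cre- replicates 1 and 3, and at 5.59 and 10.4 CPM in Cre+ replicates 2 and 4. In CD8 T cells it stood at 72.6 and 53.5 CPM in Cre- against 41.2 and 33.8 CPM in Cre+. In macrophages it stood at 24.7 and 23.1 against 18.7 and 13.7 CPM. Of all genes tested in CD8 T cells, 19.0% had both Cre+ values below both Cre- values, and no test of Frmd8 is given here.

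PD-1 and CTLA-4 are inhibitory receptors that T cells gain on activation, PD-1 binding PD-L1 and PD-L2, and CTLA-4 competing with the co-stimulatory receptor CD28 for CD80 and CD86. LAG-3, TIM-3 and TIGIT are further inhibitory receptors, which are often found together with PD-1 and the factor TOX on T cells under lasting antigen exposure, a state called exhaustion. ICOS is a co-stimulatory receptor of activated and regulatory T cells, and CD39 breaks down extracellular ATP in the first step toward adenosine. In tumors PD-L1 is carried by myeloid and dendritic cells and by some tumor cells, and interferon gamma is known to raise it.

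Replicates 1 to 3 were deposited as 7020, 7411 and 8017 barcodes of at least 500 UMIs, and Cre+ replicate 4 with 2582424 barcodes, empty droplets included. Barcodes with at least 1000 UMIs and at most 20% mitochondrial UMIs were kept, which left 4922, 5609, 5918 and 7123 cells and 107848230 to 134882211 UMIs per library. Pairs of libraries shared 6 to 16 barcodes. Cre+ replicate 4 stands apart in its form and in the Cell Ranger version that made it, so results that rest on it are given without it. In these mixtures of cells, a lower level in a class is a lower share of that class's RNA.

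Cell classes were gated on UMIs of marker genes, with cells of a second lineage left out. T cells with a UMI of Cd8a or Cd8b1 and none of Cd4 or Foxp3 were taken as CD8 T cells, those with a Cd4 UMI and none of the others as conventional CD4 T cells, and those with a Foxp3 UMI and none of Cd8a or Cd8b1 as regulatory T cells. The gates held 571 CD8 T cells (135, 123, 128 and 185 in replicates 1 to 4), 141 conventional CD4 T cells, 69 regulatory T cells (23, 13, 24 and 9), 179 natural killer (NK) cells, 5345 macrophages, 260 dendritic cells and 10690 epithelial cells. Genes outside the gates went with the names. Il2ra, the IL-2 receptor alpha chain, stood at 444 to 723 CPM in regulatory T cells and at 10.0 to 214 CPM in conventional CD4 T cells. Nkg7, a gene of cytotoxic granules, stood at 1850 to 2270 CPM in CD8 T cells, 1310 to 2300 CPM in NK cells and 0 to 53.9 CPM in regulatory T cells. Regulatory T cells of Cre+ replicate 4 were too few (9, under the minimum of 10) and stay out of the class means and the gene tests below, though they are counted in shares of cells.

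**Figure D1:**
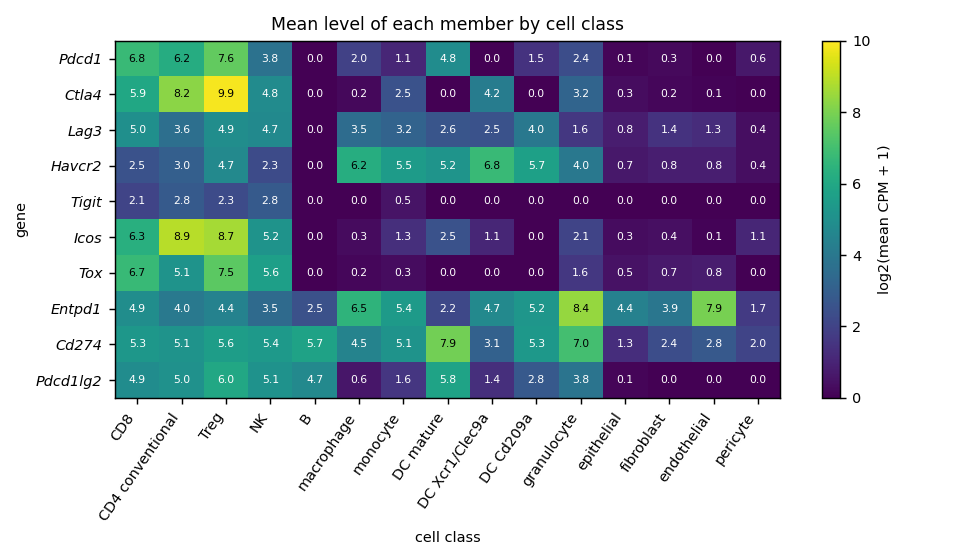
Mean level of each of the 10 genes (rows) in 15 cell classes (columns), as log2 of the mean CPM over libraries plus 1, in libraries with at least 10 cells of the class. Lighter colors are higher levels. Ctla4, Icos and Tox are highest in the T and NK columns, Pdcd1 in the T columns, and Havcr2 in macrophages and dendritic cells. Entpd1 is highest in granulocytes and endothelial cells, and Cd274 in mature dendritic cells and granulocytes.

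Promoters of the 2 receptors and the 2 ligands on which most results turn, and of Havcr2, are shown so that the windows of genes with such different cell classes can be read side by side. RefSeq (GRCm38.p6) held an entry for 7 of the 10 genes, and not for Icos, Lag3 and Tox. Each sequence is the 250 bases before the start of the gene, 5′ to 3′ on the strand of the gene, and capitals mark matches to the motifs searched on both strands.
Pdcd1, chr1:94052554-94052803, minus strand: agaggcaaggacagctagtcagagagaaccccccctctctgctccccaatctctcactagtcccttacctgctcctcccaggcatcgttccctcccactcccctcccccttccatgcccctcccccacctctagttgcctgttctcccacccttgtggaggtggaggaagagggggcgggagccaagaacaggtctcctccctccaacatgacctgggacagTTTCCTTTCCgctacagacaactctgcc
Ctla4, chr1:60908775-60909024, plus strand: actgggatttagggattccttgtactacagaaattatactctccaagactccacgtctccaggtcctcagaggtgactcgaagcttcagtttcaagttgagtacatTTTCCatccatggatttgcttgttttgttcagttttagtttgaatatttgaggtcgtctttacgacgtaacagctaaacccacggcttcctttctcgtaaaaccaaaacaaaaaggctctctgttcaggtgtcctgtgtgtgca
Havcr2, chr11:46454681-46454930, plus strand: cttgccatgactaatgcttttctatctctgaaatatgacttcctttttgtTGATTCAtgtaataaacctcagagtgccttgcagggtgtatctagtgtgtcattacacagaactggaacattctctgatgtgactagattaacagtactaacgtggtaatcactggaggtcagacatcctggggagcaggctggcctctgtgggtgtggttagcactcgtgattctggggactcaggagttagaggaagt
Cd274, chr19:29367188-29367437, plus strand: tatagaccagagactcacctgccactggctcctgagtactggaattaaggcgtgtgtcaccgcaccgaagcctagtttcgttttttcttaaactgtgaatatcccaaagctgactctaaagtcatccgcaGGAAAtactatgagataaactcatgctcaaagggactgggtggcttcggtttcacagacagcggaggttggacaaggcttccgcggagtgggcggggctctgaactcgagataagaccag
Pdcd1lg2, chr19:29410669-29410918, plus strand: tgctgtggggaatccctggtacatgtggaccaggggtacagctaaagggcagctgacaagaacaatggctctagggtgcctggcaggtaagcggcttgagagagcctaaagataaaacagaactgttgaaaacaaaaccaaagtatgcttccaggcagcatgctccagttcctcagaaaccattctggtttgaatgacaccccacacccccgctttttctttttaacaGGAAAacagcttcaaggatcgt

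The motifs searched were GGAAA (the NFAT core), TGANTCA (a loose form of AP-1, with any base at its center), TTCNNNGAA (the interferon gamma activated site), the tandem core of the interferon-stimulated response element and the NF-kB motif. The NFAT core was found in the windows of Pdcd1 (28 and 23 bases before the start), Ctla4 (144 bases), Cd274 (120 bases), Pdcd1lg2 (22 bases), Tigit and 1 of the 2 entries of Entpd1, and 55.6% of all 27025 promoters of this length hold it. The loose AP-1 form was found in the Havcr2 window alone among the 7 genes, as TGATTCA 200 bases before the start. It is held by 6.87% of all promoters, and a match to it need not be an AP-1 site. No window of a member held the interferon gamma activated site (7.18% of all), the interferon-stimulated response element (3.04%) or the NF-kB motif (378 of the 27025), which says only that these letters are not in these windows.

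Pdcd1 (ENSMUSG00000026285) had its highest means in T cells. In CD8 T cells it stood at 120, 74.2, 193 and 48.2 CPM in replicates 1 to 4, from 147, 81, 195 and 124 UMIs, and the 2 Cre- mice were the higher pair. In regulatory T cells it stood at 250, 108 and 228 CPM in replicates 1 to 3, and in conventional CD4 T cells at 50.0, 101, 87.1 and 50.1 CPM. The means over libraries fell in the order regulatory T cells (195 ± 76.7 CPM, SD, n = 3), CD8 T cells (109 ± 63.6, n = 4) and conventional CD4 T cells (72.2 ± 26.2, n = 4), and the ranges of these neighbors overlap. Mature dendritic cells came next, with a mean of 27.8 CPM (0 to 50.5) from 34 UMIs in 12 of 95 cells. Their range overlaps that of conventional CD4 T cells. In NK cells 14 UMIs in 3 cells of Cre- replicate 1 gave 44.5 CPM, against 0 to 3.71 CPM in the other libraries.

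A Pdcd1 UMI was found in 32.6%, 22.8%, 37.5% and 22.2% of the CD8 T cells of replicates 1 to 4. With every cell thinned to 1000 UMIs these shares were 11.8%, 7.13%, 16.9% and 4.85%. The same share among epithelial cells, taken as a class that should lack PD-1, was 0.0309% to 0.241% before and 0.000893% to 0.0179% after thinning. Median depths were 6381 to 13505 UMIs in CD8 T cells and 12418 to 22405 in epithelial cells, so the CD8 shares lay far above the background at a lower depth in most libraries. Macrophages held 237 Pdcd1 UMIs in all, at 0.734 to 5.10 CPM.

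Ctla4 (ENSMUSG00000026011) was highest in regulatory T cells, where it stood at 664, 744 and 1410 CPM in replicates 1 to 3. In replicate 3, 62 of its UMIs came from 1 cell. Conventional CD4 T cells held 479, 96.8, 163 and 471 CPM, and every regulatory value lay above all 4. CD8 T cells held 104, 26.6, 80.3 and 30.3 CPM, and the Cre- pair was again above the Cre+ pair. A Ctla4 UMI was found in 84.6% to 87.5% of the regulatory T cells of replicates 1 to 3, and in 18.7% to 34.8% of CD8 T cells (43.9% to 55.7% and 3.12% to 11.1% at 1000 UMIs).

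Icos (ENSMUSG00000026009), the co-stimulatory relative of CD28 and CTLA-4, stood at 600, 286, 526 and 541 CPM in conventional CD4 T cells and at 435, 367 and 412 CPM in regulatory T cells, which do not differ beyond their ranges. CD8 T cells held 117, 56.8, 109 and 33.8 CPM, below every CD4 value. NK cells held 20.8 to 63.5 CPM, and every class outside T and NK cells had a mean of at most 4.76 CPM. The ranges of both CD4 classes thus overlap for Icos and do not for Ctla4.

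Lag3 (ENSMUSG00000030124), which binds MHC class II, stood at 37.5, 23.8, 36.7 and 24.9 CPM in CD8 T cells and at 28.6, 50.0, 0 and 24.5 CPM in NK cells. The range of CD8 T cells (23.8 to 37.5 CPM) lies within that of NK cells. Macrophages held more Lag3 molecules in all than CD8 T cells, with 868 UMIs in 611 of 5345 cells against 173 UMIs in 571 CD8 T cells. On the CPM scale they held less, at 11.1, 13.1, 13.8 and 4.60 CPM, and epithelial cells held 0.607 to 0.915 CPM.

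Havcr2 (ENSMUSG00000020399), the TIM-3 gene, was a myeloid gene in these tumors. Macrophages held it at 82.3, 76.9, 72.6 and 67.5 CPM with a spread of 6.30 (SD, n = 4) around 74.8, and 44.2% to 53.2% of them had a UMI. Dendritic cells with Xcr1 or Clec9a, the class that presents antigen of dead cells to CD8 T cells, held 118, 131 and 81.5 CPM in the 3 libraries with at least 10 such cells. CD8 T cells held 10.6, 4.58, 1.98 and 1.94 CPM and regulatory T cells 10.9 to 32.4 CPM, so the lymphocyte values lay below every macrophage value. Epithelial cells held 0.416 to 0.816 CPM.

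Tigit (ENSMUSG00000071552), whose product competes with CD226 for the poliovirus receptor, was barely counted, with 15, 13, 14 and 19 UMIs in the libraries of replicates 1 to 4. CD8 T cells held 19 of these UMIs, NK cells 12 and conventional CD4 T cells 6, and epithelial cells had 1, 1, 1 and 2. That came to 4.89, 2.75, 1.98 and 3.11 CPM in CD8 T cells. Macrophages held 0 UMIs in 5345 cells, which allows up to 0.0324 CPM and 0.0561% of cells with a UMI. Tigit did not pass the filter on low counts in any comparison and has no test.

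Tox (ENSMUSG00000041272), a factor that maintains exhausted CD8 T cells, stood at 162, 107, 111 and 44.7 CPM in CD8 T cells and at 250, 151 and 133 CPM in regulatory T cells. Conventional CD4 T cells held 35.7, 55.3, 36.5 and 10.0 CPM and NK cells 63.5, 59.4, 40.9 and 30.0 CPM. All 3 regulatory values lay above all conventional CD4 values. Dendritic cells held 0 UMIs in 260 cells, which allows up to 0.783 CPM.

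Entpd1 (ENSMUSG00000048120), the CD39 gene, was highest outside lymphocytes. Granulocytes held 315, 263, 438 and 343 CPM, endothelial cells 298, 289, 281 and 109 CPM, and macrophages 101, 99.2, 90.5 and 69.9 CPM. The ranges of granulocytes and endothelial cells overlap, and both lie above that of macrophages. CD8 T cells held 21.8 to 35.7 CPM.

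Where the RefSeq span of a member overlaps that of another gene, the reads of both may not be told apart. The use of strand in counting is not given in the sources used here, and the ends of the transcripts were not compared. Such spans overlap for Tigit with Zbtb20, for Tox with Gm11802, and for Cd274 with Plgrkt and Gm36043. That of Entpd1 overlaps 3 predicted gene models, none of which is among the genes listed here.

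**Figure D2:**
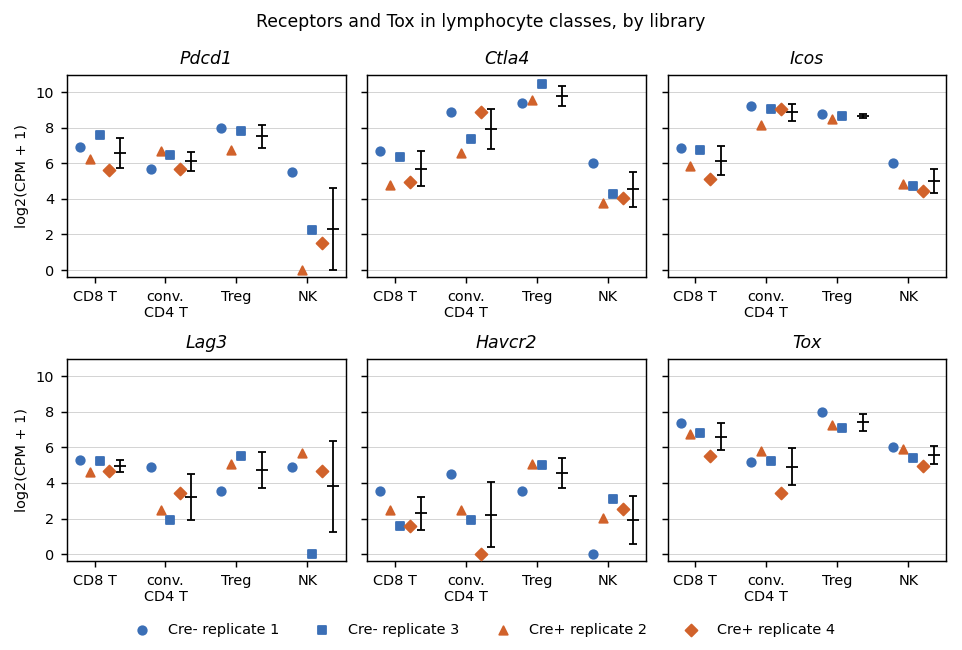
Level of Pdcd1, Ctla4, Icos, Lag3, Havcr2 and Tox in CD8 T, conventional CD4 T, regulatory T and NK cells, on the axis log2(CPM + 1), with 1 point per library and a bar at the mean with its SD over libraries of at least 10 cells. Ctla4 of regulatory T cells (664 to 1410 CPM) lies above every other class, and Icos of both CD4 classes above that of CD8 T cells.

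The first comparison asked how the receptors differ between lymphocyte classes. Sums of counts per library and class were fitted with edgeR in 1 model of class and genotype (15 sums, 5385 genes), and p-values were adjusted by Benjamini-Hochberg over these genes. Pdcd1, Ctla4, Icos, Lag3, Tox, Cd274 and Pdcd1lg2 passed the filter on low counts, and Havcr2, Tigit and Entpd1 did not.

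Between regulatory and conventional CD4 T cells, 1 of the 7 tested members was called, where 5.66% of all genes were called. Tox was higher in regulatory T cells, by a log2 difference of 2.05 ± 0.44 (SE; adjusted p = 0.00861), and this call was lost without replicate 1, without replicate 3 and with 1 more marker UMI required in the gates. Ctla4 differed by 1.48 ± 0.46 on the log2 scale and missed the threshold (adjusted p = 0.0677), while a fit blocked by mouse called it, with 2 members called in all. It was also called without replicate 4 (2.04, adjusted p = 0.00414), with stricter cell calling in replicate 4 (2.06, adjusted p = 0.0101), with 1 more marker UMI and with no filter on low counts. Pdcd1 (1.01 ± 0.52, adjusted p = 0.315) and Lag3 (1.50 ± 0.96, adjusted p = 0.447) leaned the same way and Icos the other way (−0.49 ± 0.29, adjusted p = 0.396), none of them past the threshold. The block raised the genes called from 305 to 530.

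Of the checkpoint and exhaustion genes outside the members (71 genes in 4 lists of ligands, receptors, exhaustion factors with adenosine genes, and interferon gamma genes), 44 were tested, of which 10 were higher and 4 lower in regulatory T cells. The higher ones were led by Klrg1, an inhibitory lectin receptor (368 to 475 against 0 to 50.0 CPM), Tnfrsf9, the co-stimulatory receptor 4-1BB (464 to 1370 against 27.7 to 180 CPM), and Ikzf2, the factor Helios (1090 to 1600 CPM against a mean of 128 CPM and a highest of 307). The lower ones were led by Tcf7, a factor of naive and memory T cells, with 1 UMI in all regulatory T cells against 160 to 264 CPM. Cd40lg, the CD40 ligand, fell by 2.72 and Cd226, the activating partner of TIGIT, fell by 1.88 on the log2 scale. The median log2 difference was 0.10 over the 44 genes and −0.03 over all genes.

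Between CD8 and conventional CD4 T cells, 3 of 7 members were called, where 8.65% of all genes were called. Icos was lower in CD8 T cells by a log2 difference of −2.68 ± 0.26 (adjusted p = 1.89e-06) and Ctla4 by −2.34 ± 0.44 (adjusted p = 0.00167). Both calls held in all 12 alternatives tried. Tox was higher by 1.48 ± 0.38 (adjusted p = 0.0170) and lost the call without replicate 1, without replicate 3, with 1 more marker UMI and with stricter cell calling in replicate 4. Lag3 (1.78 ± 0.71, adjusted p = 0.143) and Pdcd1 (0.45 ± 0.44, adjusted p = 0.620) did not pass.

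Of the 44 pathway genes tested, 7 were higher and 13 lower in CD8 T cells, with a median log2 difference of −0.29 against 0.01 over all genes. Cd160, which binds HVEM, stood at 117 to 302 CPM in CD8 T cells against 0 to 32.3 CPM, and Klrc1, the NKG2A receptor gene, at 80.0 to 124 against 0 to 30.9 CPM. Cd244a, the 2B4 receptor, was higher by 5.67 ± 0.74 on the log2 scale. Tnfrsf4, the co-stimulatory receptor OX40, stood at 2.75 to 6.52 CPM in CD8 T cells against 226 to 545 CPM, and Cd40lg and the factor gene Maf were lower as well (−4.92 and −3.85).

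Between NK and CD8 T cells, 3 of 7 members were called, all lower in NK cells, where 4.20% of all genes were called. Pdcd1 was lower by a log2 difference of −3.42 ± 0.53 (adjusted p = 2.93e-04), in all 12 alternatives tried. Icos (−1.12 ± 0.30, adjusted p = 0.0322) and Tox (−1.10 ± 0.31, adjusted p = 0.0492) were close to the threshold, both calls were lost without replicate 1 and without replicate 3, and that of Icos also without replicate 2. Stricter cell calling in replicate 4 and upper limits on genes and UMIs ended both as well, and 1 more marker UMI, a minimum of 2000 UMIs and DESeq2 that of Tox. Ctla4 (−1.05 ± 0.50) and Lag3 (−0.18 ± 0.45) did not pass, with adjusted p of 0.352 and 0.956. With the mouse as a block 437 genes were called in place of 226.

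Of the 44 pathway genes tested here, 4 were higher and 5 lower in NK cells, with medians of −0.04 over these genes and −0.01 over all. Klrg1 (26.0 to 74.7 against 3.11 to 15.6 CPM), Tgfb1 (247 to 429 against 113 to 158 CPM) and Tbx21, the T-bet gene (74.3 to 124 against 42.3 to 55.5 CPM), led the higher ones. Cd6, a T cell adhesion receptor, had 0 UMIs in NK cells, which allows up to 1.18 CPM, against 104 to 157 CPM in CD8 T cells. Cd5 held 1 UMI in NK cells against 49.7 to 70.9 CPM, and Ikzf2 stood at 44.6 to 156 against 181 to 367 CPM.

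The next question was which members go with Pdcd1 inside the CD8 gate. CD8 T cells with at least 1 Pdcd1 UMI (44, 28, 48 and 41 cells in replicates 1 to 4) were compared with those without (91, 95, 80 and 144 cells), with Pdcd1 itself left out. Ctla4 stood at 210 against 60.2 CPM in Cre- replicate 1, 56.0 against 17.8 in Cre+ replicate 2, 191 against 24.0 in Cre- replicate 3 and 53.2 against 22.7 in Cre+ replicate 4. It was higher in the cells with Pdcd1 in 4 of 4 mice, by a log2 difference of 1.78 ± 0.27 (edgeR, adjusted p = 0.0424).

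Ctla4 was the 1 called member of 7 tested, where 0.0479% of 6260 genes were called. Leaving out replicate 1, 2 or 3, stricter cell calling in replicate 4, 1 more marker UMI and a stricter exclusion of a second lineage each ended the call. Lag3 was higher in 4 of 4 mice (77.3, 52.0, 70.4 and 29.7 against 20.8, 15.5, 19.5 and 23.3 CPM) but not past the threshold, at 1.31 ± 0.28 (adjusted p = 0.362), and passed without replicate 4 (1.75, adjusted p = 0.00889) and with no filter on low counts (adjusted p = 0.00541). Tox was higher in 4 of 4 mice too (304, 128, 252 and 65.7 against 103, 101, 39.0 and 37.7 CPM), at 1.19 ± 0.38 (adjusted p = 0.915), and passed with the mouse as a block, where 26 genes and 2 members were called, and with no filter. Entpd1 (33.1, 60.0, 38.1 and 37.6 against 28.9, 28.5, 13.5 and 26.9 CPM) and Icos (132, 64.0, 138 and 34.4 against 110, 54.7, 94.4 and 33.6 CPM) were also higher in 4 of 4 mice, by log2 differences of 0.66 ± 0.27 and 0.20 ± 0.22, neither past the threshold with all libraries or in the 12 alternatives. The median depths of the cells with and without a Pdcd1 UMI were 6021.5 and 8242, 7969.5 and 7664, 5419.5 and 7017.5, and 13760 and 13026 UMIs in replicates 1 to 4, so the cells with Pdcd1 were the shallower ones in both Cre- mice and the deeper ones in both Cre+ mice.

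Havcr2 could not be tested here. It had 12, 4, 2 and 2 UMIs in the CD8 T cells with Pdcd1 against 1, 1, 0 and 3 in those without, so most of the few Havcr2 molecules of CD8 T cells lay with Pdcd1 in replicates 1 to 3. On the CPM scale Havcr2 was higher with Pdcd1 in each of the 4 mice, and so was Tigit, on 1 or 2 UMIs. The ligand gene Cd274 was higher in each mouse as well (35.9, 56.0, 35.2 and 48.5 against 34.7, 51.1, 27.0 and 31.5 CPM). Its log2 difference was 0.23 ± 0.23, and Pdcd1lg2 did not rise in every mouse. The share of all genes that rise in every mouse was not counted. None of the 40 pathway genes tested in this split was called.

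**Figure D3:**
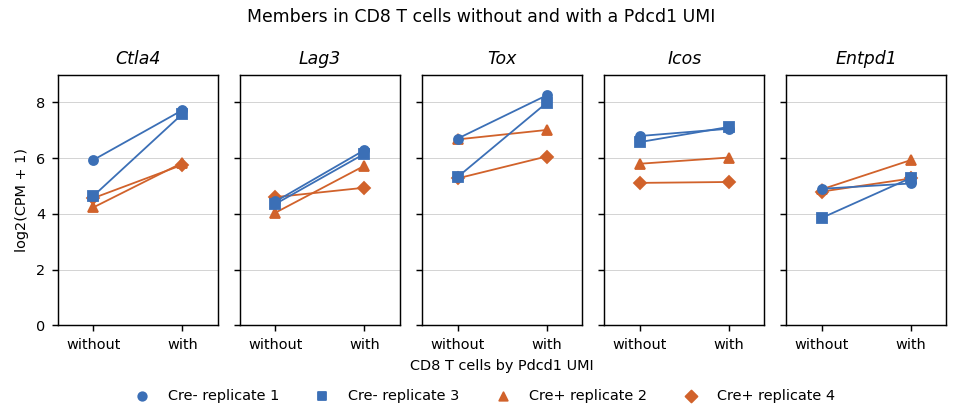
Level of Ctla4, Lag3, Tox, Icos and Entpd1 in CD8 T cells without and with a Pdcd1 UMI, on the axis log2(CPM + 1), with a line per library joining its 2 values. The lines of all 5 genes rise in 4 of 4 libraries, those of Icos the least (0.20 on the log2 scale in the fit), and only the difference of Ctla4 passed the threshold with all libraries. Cd274, Havcr2 and Tigit, not drawn, also rise in 4 of 4 libraries, and the share of all genes that do so was not counted.

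Counting Pdcd1, Ctla4, Lag3, Havcr2 and Tigit together, 37, 20, 35 and 38 CD8 T cells of replicates 1 to 4 had UMIs of at least 2 of the 5 inhibitory receptors, which is 27.4%, 16.3%, 27.3% and 20.5%. At 1000 UMIs per cell these shares were 5.37%, 1.49%, 5.24% and 1.22%, with the Cre- pair above the Cre+ pair. At least 3 receptors were found in 12.6%, 3.25%, 9.38% and 4.32% of CD8 T cells. Of the CD8 T, regulatory T and NK cells counted in this way, regulatory T cells held the highest shares. They had at least 2 receptors in 60.9%, 46.2% and 54.2% of the cells of replicates 1 to 3 and in 4 of the 9 of replicate 4 (7.55% to 14.6% at 1000 UMIs). Conventional CD4 T cells were not counted in this way. NK cells had at least 2 in 3.85% to 20.7%.

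Cd274 (ENSMUSG00000016496), the PD-L1 gene, had its highest mean in mature dendritic cells, the class with Ccr7, Fscn1 and Ccl22 that carries antigen to lymph nodes. It stood there at 321, 108, 274 and 215 CPM in replicates 1 to 4, and 90.0%, 50.0%, 73.3% and 68.8% of these 20, 14, 45 and 16 cells had a UMI. Macrophages held 14.0, 18.2, 12.5 and 39.4 CPM and were nonetheless the largest pool, with 2344 UMIs against 340 in all dendritic cells and 434 in epithelial cells. Of these 2344, 1557 came from Cre+ replicate 4, and in Cre- replicate 1 macrophages held 173 UMIs against 137 in epithelial cells. Epithelial cells held 1.64, 1.10, 0.647 and 2.50 CPM, the lowest mean of the 15 classes, and 1.53% to 3.65% of them had a UMI (0.0769% to 0.383% at 1000 UMIs).

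Granulocytes varied most in Cd274, with 64.9, 11.4, 75.8 and 362 CPM. These rest on 44, 1, 18 and 57 UMIs, and the highest value is that of Cre+ replicate 4, where they lay above mature dendritic cells (215 CPM). The ranges of both classes overlap. Lymphocytes also carried the ligand, with 29.7 to 52.2 CPM in CD8 T cells. Fibroblasts held 3.16 to 4.98 CPM and endothelial cells 1.90 to 12.4 CPM.

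Pdcd1lg2 (ENSMUSG00000016498), the PD-L2 gene, was shared by mature dendritic cells and lymphocytes. Mature dendritic cells held 82.6, 43.1, 58.0 and 34.9 CPM from 18, 6, 33 and 6 UMIs, regulatory T cells 81.6, 53.9 and 50.7 CPM, and CD8 T cells 31.0, 29.3, 14.9 and 38.5 CPM. The 2 leading classes do not differ beyond their ranges. Macrophages held 0.273 to 0.888 CPM and epithelial cells 0.0666 to 0.121 CPM. Fibroblasts had 0 UMIs in 1125 cells, which allows up to 0.0942 CPM, and endothelial cells 0 UMIs, which allows up to 0.347 CPM.

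**Figure D4:**
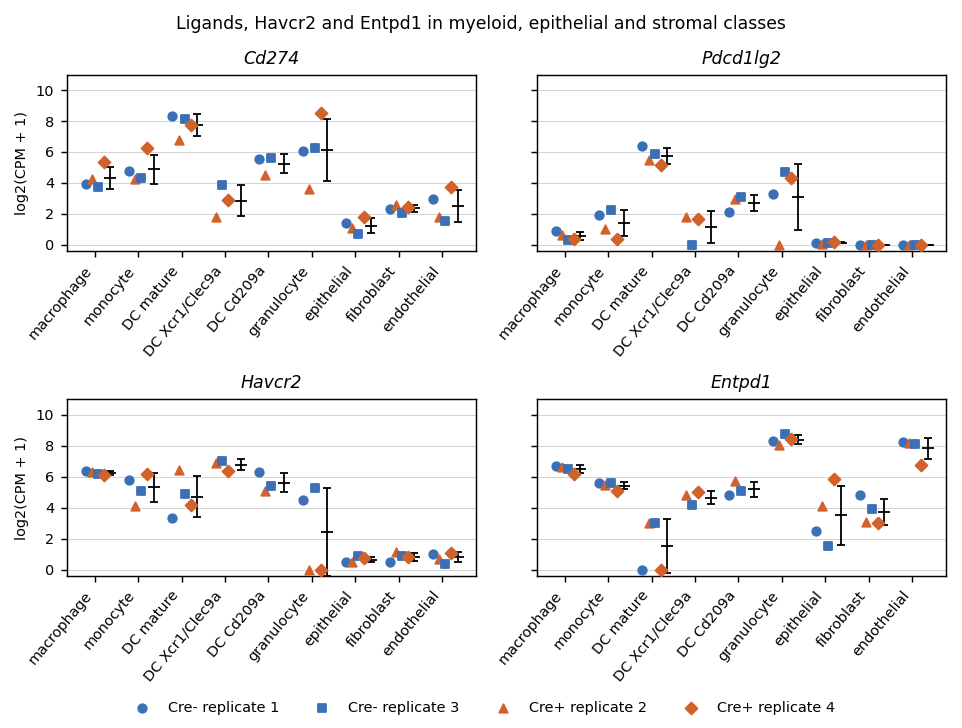
Level of Cd274, Pdcd1lg2, Havcr2 and Entpd1 in 9 myeloid, epithelial and stromal classes, on the axis log2(CPM + 1), with 1 point per library and a bar at the mean with its SD over libraries of at least 10 cells. Cd274 of mature dendritic cells (108 to 321 CPM) stands far above that of epithelial cells (0.647 to 2.50 CPM), and Havcr2 of macrophages varies little (67.5 to 82.3 CPM).

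The second comparison asked which of the cells that can present ligands hold them. Macrophages, dendritic cells, granulocytes, epithelial cells, fibroblasts and endothelial cells were fitted in 1 edgeR model (24 sums, 13031 genes), in which Tigit, Icos and Tox did not pass the filter on low counts. Between dendritic cells and macrophages, 3 of 7 members were called, all higher in dendritic cells, where 25.7% of all genes were called. Pdcd1lg2 was higher by a log2 difference of 5.12 ± 0.54 (adjusted p = 1.54e-06), in all 12 alternatives tried. Cd274 was higher by 2.20 ± 0.60 (adjusted p = 0.00821) and lost the call without replicate 1 and without replicate 3. Only mature dendritic cells (108 to 321 CPM) had a Cd274 range above that of macrophages (12.5 to 39.4 CPM). Dendritic cells with Xcr1 or Clec9a held 2.50 to 13.5 CPM and those with Cd209a 22.2 to 47.8 CPM, each in 3 libraries. Ctla4 was called too, at 5.06 ± 0.82 (adjusted p = 5.34e-05), but on 3, 2, 12 and 3 UMIs of dendritic cells, and the 12 of Cre- replicate 3 came from 1 cell. It was tested in 9 of the 12 alternatives. There was no test of Ctla4 without replicate 3, with stricter exclusion of a second lineage or with the upper limits on genes and UMIs. Havcr2 (−0.25 on the log2 scale) did not pass, and Entpd1 (−1.85 ± 0.72, adjusted p = 0.0641) did not either, though 4 of the 12 alternatives called it: DESeq2 (adjusted p = 0.0215), no filter on low counts (4.05e-05), the upper limits on genes and UMIs (0.00779) and edgeR without replicate 4 (0.0209).

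Of 54 pathway genes tested, 19 were higher and 12 lower in dendritic cells, with a median log2 difference of 0.51 against −0.13 over all genes. Btla, an inhibitory receptor of HVEM, stood at 76.9 to 191 CPM against 0 to 0.202 CPM in macrophages, and Tnfsf4 (the OX40 ligand) and Cd200 were higher by 6.63 and 6.42. Cd276 (B7-H3) had 0 UMIs in dendritic cells, which allows up to 0.783 CPM, against 7.41 to 26.9 CPM. Lair1, a collagen receptor, stood at 13.6 to 22.7 against 218 to 277 CPM, and Nt5e (CD73), which makes adenosine from AMP, was lower by −5.35.

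Between macrophages and epithelial cells, 6 of 7 members were called, all higher in macrophages, where 60.4% of all genes were called. Havcr2 differed by 7.32 ± 0.33 on the log2 scale (adjusted p = 1.15e-14), Cd274 by 4.14 ± 0.62 (adjusted p = 3.39e-06) and Pdcd1lg2 by 2.57 ± 0.52 (adjusted p = 4.01e-04). Lag3 (4.09 ± 0.39), Pdcd1 (5.22 ± 0.78) and Entpd1 (2.52 ± 0.66) were the others, and all 6 calls held in all 12 alternatives tried. Of 54 pathway genes, 35 were higher and 9 lower in macrophages, with a median of 1.84 against −0.06, and 8 of 8 tested interferon gamma genes were among the higher ones. The share of all genes called counts both directions, here and for fibroblasts and endothelial cells below. No share of all genes called higher is given. Cd86, the ligand of CD28 and CTLA-4, stood at 153 to 206 against 0.900 to 1.63 CPM, and Lair1 and Il10 were higher by 7.83 and 7.21. Vtcn1 (B7-H4), Nectin3 and Cd200 were lower by −6.54, −5.47 and −5.08, as ligands that epithelial cells held above macrophages.

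Fibroblasts held 2 of 7 members above epithelial cells, where 57.7% of all genes were called. Lag3 was higher by 1.35 ± 0.41 (adjusted p = 0.00690) and Cd274 by 1.69 ± 0.64 (adjusted p = 0.0284) on the log2 scale. Both calls were lost without replicate 1, and that of Cd274 also without replicate 3 and with the upper limits on genes and UMIs. The levels were low, for Lag3 1.14 to 2.67 CPM in fibroblasts (53 UMIs in 1125 cells) against 0.607 to 0.915 CPM. Droplets of Cre+ replicate 4 with at most 100 UMIs held more of Lag3 (3.21 CPM) and Cd274 (18.7 CPM) than either class. The part of such free RNA was not tested. Of 54 pathway genes 27 were higher and 9 lower (median 0.93 against −0.03), with 8 of 8 interferon gamma genes higher. The chemokine genes Cxcl13 and Cxcl9 and the signaling regulator Rgs16 led the higher ones at 5.72, 5.67 and 5.01, and Ceacam1, a ligand of TIM-3, led the lower ones, followed by Vtcn1 and Cd27.

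Endothelial cells held 1 of 7 members above epithelial cells, where 53.7% of all genes were called. That was Entpd1, at 3.63 ± 0.70 on the log2 scale (adjusted p = 1.33e-04), in all 12 alternatives tried. Cd274 differed by 1.80 ± 0.80 (adjusted p = 0.0615) and passed with the mouse as a block, where 2 members were called. Of 54 pathway genes 23 were higher and 10 lower (median 0.10 against −0.12), 7 of 8 interferon gamma genes among the higher ones. Cxcl9, Tnfrsf9 and Adora2a, an adenosine receptor gene, led at 7.44, 6.68 and 6.11, and Tnfrsf18 (GITR), Vtcn1 and Ikzf2 were lowest at −6.44, −5.99 and −5.68.

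The comparison of the study is that of genotypes. It was made within each class, with 2 Cre- and 2 Cre+ libraries (2 and 1 for regulatory T cells). In CD8 T cells 0 of 8 tested members were called by edgeR, where 0.0126% of 7955 genes (1 gene) were called. At an unadjusted p under 0.05 there were 4 members and 316 genes, and DESeq2 called 0 members and 1 gene. Ctla4 was lower in Cre+ by a log2 difference of −1.60 ± 0.27 (adjusted p = 0.376), Pdcd1 by −1.33 ± 0.31 (adjusted p = 0.886), Icos by −1.30 ± 0.27 (adjusted p = 0.753), Tox by −0.84 ± 0.35 and Lag3 by −0.52 ± 0.29 (both adjusted p = 0.951).

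The levels of CD8 T cells show the same 5 genes without overlap of the genotypes. Pdcd1 stood at 120 and 193 CPM in Cre- against 74.2 and 48.2 in Cre+, Ctla4 at 104 and 80.3 against 26.6 and 30.3, and Icos at 117 and 109 against 56.8 and 33.8. Both Cre+ values lay below both Cre- values in 5 of 8 members, where 19.0% of all genes tested in CD8 T cells did so. Cd274, Pdcd1lg2 and Entpd1 leaned toward Cre+ (0.47, 0.65 and 0.37 on the log2 scale, each adjusted p = 0.951).

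Without Cre+ replicate 4, Ctla4 passed the threshold (−1.79, adjusted p = 8.68e-04), and without Cre+ replicate 2, Ctla4 (−1.47), Icos (−1.60), Pdcd1 (−1.57) and Tox (−1.47) did, with adjusted p of 3.11e-04 to 0.00127. These fits rest on 1 Cre+ mouse, which is assumed to vary like the Cre- mice. With no filter on low counts Ctla4 (adjusted p = 1.94e-04), Pdcd1 (0.00343) and Icos (0.00637) passed with all 4 mice. The share of CD8 T cells with a Pdcd1 UMI at 1000 UMIs was 14.4% ± 3.61 in Cre- and 5.99% ± 1.61 in Cre+ (SD, n = 2 each), and an exact two-sided permutation test gave p = 0.333, the smallest that 2 against 2 libraries allow. The 5 markers of NK cells summed to 174 and 84.3 CPM in the CD8 T cells of Cre- mice against 230 and 273 CPM in those of Cre+ mice, with 1 to 3 of the 5 at 0. The 6 macrophage markers (38.3 to 99.9 CPM) and the 6 epithelial markers (123 to 218 CPM) overlapped between genotypes. The part of these in the lower receptor levels was not tested.

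In dendritic cells 0 of 5 tested members were called by edgeR, and 0% of 6978 genes. At an unadjusted p under 0.05 there were 3 members and 542 genes, and DESeq2 called 0 members and 12 genes. Cd274 stood at 126 and 133 CPM in Cre- against 26.0 and 54.5 CPM in Cre+, a log2 difference of −1.66 ± 0.36 (adjusted p = 0.356). Pdcd1lg2 stood at 26.9 and 26.6 against 10.0 and 9.54 CPM (−1.41 ± 0.39, adjusted p = 0.468). With Pdcd1 (17.0 and 13.7 against 0 and 6.81 CPM), 3 of the 5 had both Cre+ values below both Cre- values, where 19.7% of all genes tested in dendritic cells did so.

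Mature dendritic cells held most of both ligands, with 70, 15, 156 and 37 of the 89, 26, 185 and 40 Cd274 UMIs of dendritic cells in replicates 1 to 4. They were 20 of 57 and 45 of 91 dendritic cells in Cre- replicates 1 and 3, and 14 of 66 and 16 of 46 in Cre+ replicates 2 and 4. Within them Cd274 stood at 321 and 274 CPM in Cre- (70 and 156 UMIs) and at 108 and 215 CPM in Cre+ (15 and 37 UMIs). No genotype test was made within mature dendritic cells, and the part of their share in the result was not tested. The 6 macrophage markers summed to 574 and 594 CPM in the dendritic cells of Cre- mice and to 1480 and 116 CPM in those of Cre+ mice, and their part in the result was not tested. Without Cre+ replicate 4, Cd274 (−2.38, adjusted p = 3.06e-05; with no filter on low counts and all mice −1.67, adjusted p = 3.12e-05) and Pdcd1 (adjusted p = 0.0231) passed the threshold in dendritic cells, Pdcd1 against 0 UMIs in the remaining Cre+ library. Without Cre+ replicate 2 neither passed, with −1.11 (adjusted p = 0.106) for Cd274 and −0.99 (adjusted p = 0.657) for Pdcd1.

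In macrophages Cd274 leaned the other way, with 14.0 and 12.5 CPM in Cre- and 18.2 and 39.4 CPM in Cre+, a log2 difference of 1.28 ± 0.44 (adjusted p = 1.00). The high value is that of Cre+ replicate 4, in which 53 UMIs, a small part of its macrophage UMIs of Cd274, came from 1 cell. Without replicate 4 the difference was 0.50, and without Cre+ replicate 2 it was 1.75, where that of Lag3 was −1.27. Each of these fits rests on 1 Cre+ mouse. No member of the 6 tested was called by edgeR (0% of 12645 genes), with 1 member and 242 genes at an unadjusted p under 0.05, and DESeq2 called 0 members and 8 genes. Havcr2 (0.02) and Entpd1 (−0.07) lay close to 0.

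In epithelial cells, the intended site of the deletion, Entpd1 differed most between mice, with 4.67 and 1.93 CPM in Cre- against 16.4 and 57.2 CPM in Cre+. A UMI was found in 202 and 98 cells (8.28% and 3.94%) of Cre- against 581 of 2525 and 1355 of 3235 cells of Cre+ mice, and at 1000 UMIs in 0.667% and 0.505% against 1.86% and 4.93%. The log2 difference was 3.58 ± 0.86 and was not called by edgeR (adjusted p = 1.00), while DESeq2 called it (adjusted p = 0.00208). Of 7 members 0 were called, and 0% of 16360 genes, with 1 member and 388 genes at an unadjusted p under 0.05, and DESeq2 called 1 member and 60 genes.

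Droplets of Cre+ replicate 4 with at most 100 UMIs, which hold free RNA, contained Entpd1 at 40.1 CPM. The epithelial cells of this library held 57.2 CPM. These are unlike measures, since free RNA is only a part of what is counted in a cell, and that part was not estimated. Such droplets were not among the barcodes of replicates 1 to 3. The 5 granulocyte markers, a class high in Entpd1, summed to 47.4 and 75.0 CPM in the epithelial cells of Cre- mice and to 39.8 and 283 CPM in those of Cre+ mice, with none at 0. The 6 macrophage markers summed to 37.2 and 83.2 against 92.4 and 110 CPM and the 6 fibroblast markers to 66.0 and 90.4 against 106 and 156 CPM, both without overlap of the genotypes and with none at 0. The part of these 3 lists in the result was not tested. Without replicate 4 the Entpd1 difference was 2.28 (adjusted p = 1.00). Cd274 of epithelial cells (0.73 on the log2 scale) turned to −0.10 without replicate 4, neither past the threshold.

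In fibroblasts Entpd1 leaned the other way from epithelial cells, with 27.6 and 13.9 CPM in Cre- against 7.61 and 7.20 CPM in Cre+ (−1.42 ± 0.36, adjusted p = 0.627, or 1.28e-06 with no filter on low counts). The 5 granulocyte markers summed to 54.9 and 5.37 CPM in the fibroblasts of Cre- mice and to 1.87 and 4.17 CPM in those of Cre+ mice, with 0 to 3 of the 5 at 0, and their part in the result was not tested. Of 3 members 0 were called by edgeR, and 0% of 12401 genes, with 1 member and 663 genes at an unadjusted p under 0.05, and DESeq2 called 0 members and 71 genes. In endothelial cells 0 of 2 were called, and 0% of 10078 genes, with 0 members and 396 genes at an unadjusted p under 0.05, and 0 members and 3 genes by DESeq2. Entpd1 differed there by −0.52 ± 0.38, passed without Cre+ replicate 2 at −1.35 (adjusted p = 0.00968) and stood at −0.02, not past the threshold, without Cre+ replicate 4, the 1 low library (109 CPM).

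In conventional CD4 T cells 0 of 3 members were called by edgeR, where 0.219% of 2744 genes were, in NK cells 0 of 3 where 0.0237% of 4226 genes were, and in regulatory T cells 0 of 6 where 0.571% of 3328 genes were. No member had an unadjusted p under 0.05 in these 3 classes (118, 189 and 206 genes did), and DESeq2 called 0 members and 2, 8 and 2 genes. Pdcd1 in regulatory T cells differed by −1.10 ± 0.57 (adjusted p = 0.806). Of the pathway genes, 0 were called in 8 of the 9 classes, and in regulatory T cells Il10 was called higher and Cxcl10 lower in Cre+, an arm of 1 library of 13 cells, with the spread taken from the 2 Cre- mice only.

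**Figure D5:**
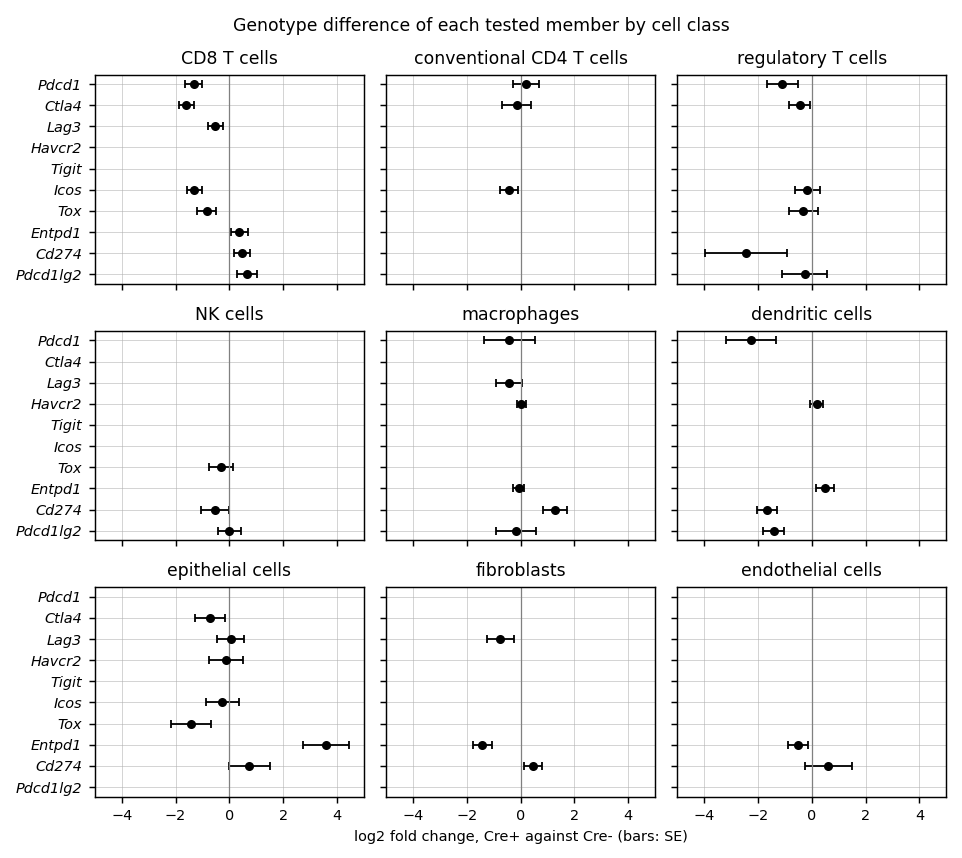
Log2 difference of Cre+ against Cre- (edgeR, with its SE) for each tested member in 9 cell classes. No difference passed the adjusted threshold of 0.05. Ctla4, Pdcd1 and Icos in CD8 T cells and Cd274 in dendritic cells lie between −1.66 and −1.30, and Entpd1 lies at 3.58 in epithelial cells and −1.42 in fibroblasts.

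Regulatory T cells made up 45.1% (23 of 51; exact 95% binomial interval 31.1 to 59.7), 27.1% (13 of 48; 15.3 to 41.8), 27.3% (24 of 88; 18.3 to 37.8) and 39.1% (9 of 23; 19.7 to 61.5) of the pooled conventional CD4 and regulatory T cells of replicates 1 to 4. These intervals, like the limits given for a count of 0, cover counting error only. The genotypes overlapped, with a difference of −3.08 percentage points (36.2% ± 12.6 in Cre- and 33.1% ± 8.52 in Cre+, SD, n = 2 each; exact two-sided permutation p = 0.667). With stricter cell calling in replicate 4 the difference was −22.6 percentage points (13.5% ± 19.2 in Cre+; exact two-sided permutation p = 0.333, the smallest possible). That rule keeps barcodes of replicate 4 above 10978 UMIs. The median depths of its regulatory and conventional CD4 T cells were 4001 and 5431.5 UMIs. Most of these cells are thus removed, and the share of replicate 4 then rests on the few left. A sort of the cells preceded the libraries and can set such shares. So can the gates, since a conventional CD4 T cell needed a Cd4 UMI and a regulatory T cell did not. T cells in none of the gates (52, 59, 110 and 41 in replicates 1 to 4) are not in these shares. They outnumbered the conventional CD4 T cells (28, 35, 64 and 14), and their part in the shares was not tested.

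The genes whose levels ran most like those of the members were found by Pearson's r of log2(CPM + 1) over 56 sums of 15 classes, among 10283 genes, as a description. Classes of 1 library share its depth and its mouse, so these sums are not independent. Pdcd1 ran closest to Icos (r = 0.869), Ubash3a (0.859) and Cd5 (0.846), and Ctla4 to Icos (0.933), Cd28 (0.897) and Lat (0.893). Icos ran closest to Lat (0.949) and Tox to Sh2d1a (0.957), the gene of the adaptor SAP. Pdcd1lg2 ran closest to Stat4 (0.905) and Ltb (0.880), Cd274 to N4bp2l1 (0.822) and Samsn1 (0.815), Havcr2 to Plcb2 (0.800) and Entpd1 to Kcnj2 (0.749).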

How the data were processed

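As deposited by the authors, the values are UMI counts of each gene in each barcode (10x Genomics 3' v3 kit), not normalized or pooled. File headers name Cell Ranger 6.1.2 for replicates 1 to 3 and Cell Ranger 4 for replicate 4. The labels name hg38 while genes carry mouse Ensembl identifiers, so the build of the counts is open. The promoter coordinates above are those of RefSeq (GRCm38.p6) and need not be on that build. Cells had been sorted by flow cytometry, with the gate not given in the sources used here, and 0 columns belonged to other samples. The members and gene lists were chosen with earlier results of these data known.

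Barcodes with at least 1000 UMIs and at most 20% mitochondrial UMIs were assigned to the lineage with the highest marker level (at least 2 UMIs and 0.2 times that lineage's median). Cells with a second lineage at 0.25 or more on the same scale were left out in place of a doublet caller (203, 220, 545 and 446 cells in replicates 1 to 4), and so were the 68 gate genes from the tests. Counts were summed per library and class (at least 10 cells), and tested in Python 3.11.15, R 4.3.3 and edgeR 4.0.16 with the quasi-likelihood test, TMM and filterByExpr (adjusted threshold 0.05). DESeq2 1.42.0, no filter, other limits on barcodes, other cell calling in replicate 4, stricter gates, a replicate block and each replicate left out were alternatives. Shares were tested with exact permutations in scipy 1.17.1. The fits were tested on simulated data. All 10 members were named, with up to 3 called pathway genes per direction of a class comparison, those with the largest change. The interaction tests and the counts without overlap were added after the data were seen.

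Sums of 1 library come from 1 mouse, which is where the pairing of the block comes from. Deviations from the class means correlated across genes with a median r of 0.19 over 16 pairs of lymphocyte sums of 1 mouse, and of −0.05 over 46 pairs of different mice (0.16 and −0.04 for the other classes). Nothing says that cells of a mouse came from several tumors, so mice are the replicates. P-values of the genotype fits measure the spread between mice, in regulatory T cells that of the Cre- mice only. P-values of the class comparisons, the Pdcd1 split and the interaction tests measure the spread between sums. Several of these sums come from 1 mouse, which only the fits with a block take into account.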

Additional observations from a re-analysis of the deposited data

Results flagged for a closer look

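Some members moved in opposite directions between genotypes in different cell classes. The difference of the genotype effects was tested as an interaction term in edgeR, a test added after the levels had been seen. The members and classes were picked for genotypes without overlap in opposite directions in these same levels, so the sizes below are selected. The share of all genes that meet this rule was not counted. The fits have no term for the mouse, though both classes come from the same mice. Entpd1 was higher in both Cre+ mice in epithelial cells and lower in both in fibroblasts, and the effects differed by 5.0 ± 1.05 (SE) on the log2 scale (edgeR, adjusted p = 1 over 16580 genes). Cd274 was higher in both Cre+ mice in macrophages and lower in both in dendritic cells, a difference of 2.91 ± 0.64 (edgeR, adjusted p = 1 over 11774 genes). Pdcd1lg2 was higher in both Cre+ mice in conventional CD4 T cells and lower in both in dendritic cells, a difference of 2.91 ± 0.74 (edgeR, adjusted p = 0.808 over 7104 genes). In conventional CD4 T cells it stood at 14.3 to 60.1 CPM in 14 to 64 cells per library. Its counts there were too low for a genotype test within that class. Each fit used 8 sums, and 0 genes passed the adjusted threshold in each, so none of these 3 differences between classes is called.

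The droplets of Cre+ replicate 4 with at most 100 UMIs entered no comparison. They held 4981956 UMIs in 2078989 barcodes, and 8 of the 10 members had more than 3 UMIs there. Entpd1 had 200 UMIs, Havcr2 95 and Cd274 93, which is 40.1, 19.1 and 18.7 CPM. Lag3 had 16 UMIs, Ctla4 and Pdcd1lg2 10 each, Pdcd1 7 and Icos 5, the last 5 genes at 1.00 to 3.21 CPM. Against the CD8 T cells of the same library, Pdcd1 (48.2 CPM), Ctla4 (30.3 CPM) and Icos (33.8 CPM) were far lower in these droplets. Such droplets were not among the barcodes of replicates 1 to 3.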

How the results depend on the processing

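The 99 pairs of a member and a comparison were recomputed under up to 12 alternatives. Of 1102 values, 1033 stayed on their side of the threshold (58 of them, none called, with the opposite sign), 31 lost a call, 37 gained one and 1 reversed. Some could not move, since regulatory T cells of replicate 4 were already out of the genotype fit. Between genotypes in conventional CD4 T cells, leaving out replicate 4 and stricter cell calling in it gave the same values. Of 20 calls, 12 held in every alternative that could be fitted: Ctla4 and Icos (CD8 against conventional CD4 T cells), Pdcd1 (NK against CD8 T cells), Pdcd1lg2 and Ctla4 (dendritic cells against macrophages), 6 members in macrophages against epithelial cells, and Entpd1 in endothelial against epithelial cells. Ctla4 in dendritic cells against macrophages was tested in only 9 of the 12 alternatives. It had no test without replicate 3, whose 1 cell held most of its UMIs in dendritic cells. The reversed value was Entpd1 in fibroblasts against epithelial cells, −0.25 with all libraries and −1.17 to 1.37 with 1 replicate left out, the highest without replicate 4 (adjusted p = 0.0429). Where the cause of a change is not named, the cause was not tested.

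Leaving out 1 replicate at a time, the number of members called ranged from 0 to 2 in regulatory against conventional CD4 T cells (1 with all), 2 to 3 in CD8 against conventional CD4 T cells (3), 1 to 3 in NK against CD8 T cells (3), 0 to 2 in the Pdcd1 split (1), 1 to 4 in dendritic cells against macrophages (3), 0 to 3 in fibroblasts (2) and 1 to 2 in endothelial cells (1) against epithelial cells. Between genotypes it ranged from 0 to 4 in CD8 T cells, 0 to 2 in macrophages and in dendritic cells and 0 to 1 in endothelial cells (0 with all in each). In CD8 T cells the log2 difference of Ctla4 was −1.47 without replicate 2 and −1.79 without replicate 4, each with 1 Cre+ mouse left. The counts over all genes also moved when 1 replicate was left out, and their ranges are given below. The share of regulatory among conventional CD4 and regulatory T cells differed by −12.0 to 5.83 percentage points. Its difference reversed without replicate 1 (5.83) and without replicate 2 (2.95). With order-of-magnitude cell calling in replicate 4, which removes most such cells of that library, it was −22.6. The Pdcd1 share of CD8 T cells differed by −10.9 to −5.84. The genotype fit of regulatory T cells could not be made without replicate 1, 2 or 3.

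Having no filter on low counts changes the genes that share the adjustment. The members called, with all genes called in brackets, were then 2 in regulatory against conventional CD4 T cells (430) and 4 in the Pdcd1 split (91). They were 5 in dendritic cells against macrophages (3398) and 2 in endothelial against epithelial cells (7943). Between genotypes they were 3 in CD8 T cells (57) and 1 each in NK cells (102), dendritic cells (155) and fibroblasts (477). With order-of-magnitude cell calling in replicate 4, regulatory against conventional CD4 T cells gave 2 and the Pdcd1 split 0, and NK against CD8 T cells gave 1. The upper limits on genes and UMIs gave 1 in NK against CD8 T cells and 1 in fibroblasts against epithelial cells. The Pdcd1 split gave 0 with 1 more marker UMI and 0 with the stricter exclusion of a second lineage. DESeq2 gave 2 in endothelial against epithelial cells and 1 between genotypes in epithelial cells.

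Classes of 1 library come from 1 mouse. With this mouse as a replicate block, 2 members each were called in regulatory against conventional CD4 T cells, the Pdcd1 split and endothelial against epithelial cells, and 530, 437 and 26 genes in regulatory against conventional CD4 T cells, NK against CD8 T cells and the Pdcd1 split (305, 226 and 3 without it). The block ended no call of a member. No block could be set between genotypes, whose replicate numbers differ.

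Over all genes, the number called moved by more than 1.5 times in these cases. Leaving out 1 replicate gave 67 to 401 genes in regulatory against conventional CD4 T cells (305 with all), 231 to 472 in CD8 against conventional CD4 T cells (466), 126 to 268 in NK against CD8 T cells (226), 0 to 45 in the Pdcd1 split (3) and 2173 to 3476 in dendritic cells against macrophages (3353). Between genotypes it gave 0 to 229 in CD8 T cells (1), 3 to 41 in conventional CD4 T cells (6), 45 to 239 in NK cells (1), 0 to 1945 in macrophages, 0 to 99 in dendritic cells, 0 to 6 in epithelial cells, 0 to 11 in fibroblasts and 0 to 274 in endothelial cells (0 with all in the last 5). Without the filter it was 802 in CD8 against conventional CD4 T cells, 605 in NK against CD8 T cells and 91 in the Pdcd1 split, and between genotypes 57, 24, 10, 102, 3, 155, 477 and 12 in CD8, conventional CD4, regulatory T, NK, macrophage, dendritic, fibroblast and endothelial cells. With 1 more marker UMI it was 152 and 261 in regulatory and in CD8 against conventional CD4 T cells, 1 in the Pdcd1 split, and 6 (19) between genotypes in regulatory T cells. Cell calling in replicate 4 and the stricter exclusion gave 1 each in the Pdcd1 split, cell calling 3 in conventional CD4 T cells between genotypes, and the stricter exclusion 0 and at least 2000 UMIs 2 in NK cells between genotypes. The upper limits gave 2 in the Pdcd1 split. DESeq2 gave 5 there, and 2, 2, 8, 8, 12, 60, 71 and 3 between genotypes in conventional CD4, regulatory T, NK, macrophage, dendritic, epithelial, fibroblast and endothelial cells.

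Depth limits Tigit (13 to 19 UMIs per library) and every regulatory T cell value (9 to 24 cells).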

Other observations

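T cells that fell in none of the CD4, CD8 and regulatory gates, for lack of the gate UMIs or with UMIs of conflicting gates (52, 59, 110 and 41 cells in replicates 1 to 4) belong to no comparison above. They held Icos at 458, 436, 543 and 112 CPM, from 177, 180, 413 and 53 UMIs, and Cre+ replicate 4 was far below the other libraries. The first 3 values lie within the range of conventional CD4 T cells (286 to 600 CPM) and above that of CD8 T cells (33.8 to 117 CPM). Pdcd1 stood at 93.2, 65.4, 139 and 12.6 CPM and Ctla4 at 64.7, 77.5, 76.3 and 82.1 CPM in these cells. Nkg7, which marks cytotoxic cells, stood at 527 to 1210 CPM, between conventional CD4 (205 to 406 CPM) and CD8 T cells (1850 to 2270 CPM).

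Monocytes, also outside the comparisons, held Cd274 at 26.1, 18.3, 18.6 and 74.9 CPM. As in granulocytes (64.9, 11.4, 75.8 and 362 CPM) and macrophages (14.0, 18.2, 12.5 and 39.4 CPM), the highest value was that of Cre+ replicate 4. In dendritic cells, by contrast, replicate 4 (54.5 CPM) lay below both Cre- libraries.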
